A study of Homo sapiens with 42 samples.

Results

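The Krüppel-like factor (KLF) genes KLF2, KLF4, KLF5, KLF6, KLF7, KLF9, KLF10, KLF11, KLF13 and KLF16 were followed by symbol through every treatment group of a study of RNA polymerase III (Pol III) in 2 human cell lines. They are 10 of the 34318 genes to which the deposited transcript estimates could be assigned, and all 10 entered the tests in each of the 5 experiments. The study asked whether protein-coding transcripts respond when Pol III, the enzyme that makes tRNAs and other short noncoding RNAs, is perturbed. The 42 libraries of poly(A) RNA form 14 groups of 3. In HEK293T, a transformed human embryonic kidney line, cells received for 48 h an antisense oligonucleotide (ASO) to POLR3G or a scramble ASO at 200 nM, or a POLR3G siRNA or a control siRNA at 200 nM. Other HEK293T cells received the POLR3GL siRNAs siE4, siE6 or siE8, or a control siRNA, at 25 nM for 48 h, and a last set overexpressed (OE) MAF1 or eGFP for 48 h. POLR3G and POLR3GL encode alternative forms of a Pol III subunit, and MAF1 is a repressor of Pol III. All HEK293T groups, controls included, were transfected with a lipid reagent, RNAiMax for oligonucleotides and another Lipofectamine for overexpression. THP-1 cells, from a human leukaemia of monocytic type, received the Pol III inhibitor ML-60218 (ML6 in the sample titles) at 25 uM for 4 h, cycloheximide (CHX, an inhibitor of translation) at 10 ug/ml for 4.5 h, both agents at these doses and times, or DMSO, for which no time is given. Each line is a single transformed line, and the labels do not say whether the 3 libraries of a group came from separate cultures, so p-values measure the spread between these libraries, which may be technical.

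KLFs are zinc-finger transcription factors that bind GC-rich and CACCC elements. KLF2, KLF4, KLF5, KLF6 and KLF7 act largely as activators, with acetyltransferases such as EP300 as partners, while KLF9, KLF10, KLF11, KLF13 and KLF16 carry a domain that recruits the SIN3A corepressor. Several of these genes, KLF6 and KLF10 among them, are known as early response genes with short-lived mRNAs, induced by serum, stress or TGF-beta, and KLF2 and KLF4 are best known in endothelial and myeloid cells.

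Promoter windows from 250 bases before to 50 bases after a start site were available from RefSeq (GRCh38.p14) for 9 of the 10 genes, 14 windows in all. The sequences given are those of KLF9, the gene with the largest change under the POLR3G siRNA, KLF6, which passed the test with the POLR3G reagents, all POLR3GL siRNAs and either THP-1 agent alone, and KLF2, whose low level in HEK293T limits its tests. The windows lie at chr9:70414608-70414907 on the minus strand (KLF9), chr10:3785160-3785459 on the minus strand (KLF6) and chr19:16324576-16324875 on the plus strand (KLF2), each spanning a start of the gene, and they are written 5′ to 3′ with capitals where a motif was found on either strand.
KLF9: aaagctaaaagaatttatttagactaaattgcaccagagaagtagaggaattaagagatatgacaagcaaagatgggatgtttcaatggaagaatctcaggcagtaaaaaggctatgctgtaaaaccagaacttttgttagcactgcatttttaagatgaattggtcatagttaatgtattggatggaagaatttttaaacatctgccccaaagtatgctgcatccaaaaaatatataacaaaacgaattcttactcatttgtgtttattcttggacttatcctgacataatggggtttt
KLF6: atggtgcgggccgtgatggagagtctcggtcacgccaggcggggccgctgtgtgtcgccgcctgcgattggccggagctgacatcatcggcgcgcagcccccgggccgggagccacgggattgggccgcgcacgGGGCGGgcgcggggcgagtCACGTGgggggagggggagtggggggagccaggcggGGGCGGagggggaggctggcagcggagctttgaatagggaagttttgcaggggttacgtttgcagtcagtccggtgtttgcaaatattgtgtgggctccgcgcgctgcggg
KLF2: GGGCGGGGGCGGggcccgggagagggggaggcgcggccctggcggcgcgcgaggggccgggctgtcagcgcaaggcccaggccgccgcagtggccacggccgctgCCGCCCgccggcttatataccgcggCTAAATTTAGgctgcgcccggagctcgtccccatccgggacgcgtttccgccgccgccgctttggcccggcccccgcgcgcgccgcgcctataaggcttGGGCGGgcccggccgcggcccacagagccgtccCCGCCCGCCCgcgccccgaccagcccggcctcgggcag
The genes themselves run from 70384597 to 70414624 on chromosome 9 (KLF9), from 3775996 to 3785281 on chromosome 10 (KLF6) and from 16324817 to 16327874 on chromosome 19 (KLF2) in GENCODE 29, and the counts cover their annotated exons. The motifs searched were the GC box GGGCGG, the cAMP response element TGACGTCA and its core TGACG (which every full element also contains), the E-box CACGTG, the CArG box bound by SRF and the element bound by MEF2 factors. The KLF9 window held 0 of these and had a GC content of 32.7%, the lowest of the 14 windows. The KLF6 window, with a GC content of 70.7%, held GGGCGG at -116 and -61 and CACGTG at -97, counted from the start. In the KLF2 window, with a GC content of 80.7%, the capitals mark 6 copies of GGGCGG and a MEF2 element at -120, and MEF2 factors are known drivers of this gene in endothelium. Of 35116 windows of this length, 45.0% held GGGCGG, 24.6% TGACG, 7.26% CACGTG, 1.85% TGACGTCA, 1.29% a CArG box and 0.572% a MEF2 element. A full TGACGTCA was found in 1 member window, 1 of those of KLF11 at -176, and a CArG box in 1 window of KLF7 at -62.

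Libraries held 32705684 to 52568088 reads. Markers of HEK293T (GATA3, PAX2, LHX1 and NEFL) summed to 40.7 to 165 TPM (a level per length) in HEK293T and to at most 0.483 TPM in THP-1, and 8 monocytic markers summed to 4187 to 6295 TPM in THP-1. Within HEK293T the monocytic markers summed to 38.4 to 43.5 TPM in the POLR3G ASO libraries, against 7.72 to 9.30 TPM in the scramble ASO libraries, with PTPRC at 0 in both. POLR3G was at 6.72 to 10.6 CPM (read counts scaled to library size by TMM) with its ASO against 21.4 to 28.4 CPM with the scramble ASO, and at 12.0 to 16.9 CPM with its siRNA against 30.6 to 41.5 CPM with the control siRNA. POLR3GL was at 2.43 to 3.97 CPM over siE4, siE6 and siE8 against 32.6 to 36.4 CPM in their control, and MAF1 at 2905 to 3328 CPM in MAF1 OE libraries against 40.4 to 42.6 CPM in eGFP OE libraries. MAF1 also fell with the POLR3G siRNA, to 9.06 to 10.2 CPM against 48.8 to 51.4 CPM in its control (log2 -2.34), and slightly with siE4 (log2 -0.18). POLR3GL fell with the POLR3G ASO and siRNA (log2 -0.44 and -0.57), and POLR3G fell with siE4, siE6 and siE8 (log2 -0.85, -0.56 and -0.93).

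In control cells the lines differed in which KLF genes were abundant. Over the 12 control libraries of HEK293T, KLF9 had the highest level per length, with a median of 31.2 TPM and a range of 25.2 to 38.7 TPM. It was followed by KLF16 (median 22.8 TPM), KLF5 (17.8 TPM), KLF11 (15.8 TPM), KLF6 (14.4 TPM) and KLF10 (13.4 TPM), and each neighbour in this order overlapped the next. KLF13 (8.71 TPM), KLF4 (4.58 TPM) and KLF7 (4.22 TPM) lay below all libraries of KLF10, again overlapping their neighbours, and KLF2 was lowest at 0.594 TPM. In the 3 DMSO libraries of THP-1 the highest were KLF10, with a median of 43.5 TPM, and KLF13, with 39.6 TPM, whose ranges overlapped. KLF16 (27.2 TPM), KLF11 (22.0 TPM), KLF4 (14.03 TPM) and KLF9 (12.2 TPM) followed without overlap, then KLF6 (10.6 TPM) and KLF7 (10.1 TPM), which overlapped, and last KLF5 (1.62 TPM) and KLF2 (1.46 TPM), which overlapped as well. KLF5, a growth-linked factor of epithelia, was at 1.5 to 2.04 TPM in THP-1 and at 15.1 to 18.8 TPM in HEK293T control libraries, and KLF6 and KLF9 were likewise lower in every THP-1 control library than in any of HEK293T. KLF4, KLF7, KLF10, KLF11, KLF13 and KLF16 were higher in every THP-1 control library, though by little for KLF11 and KLF16, and KLF2 overlapped. No test was run between the lines, which were separate experiments.

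**Figure D1:**
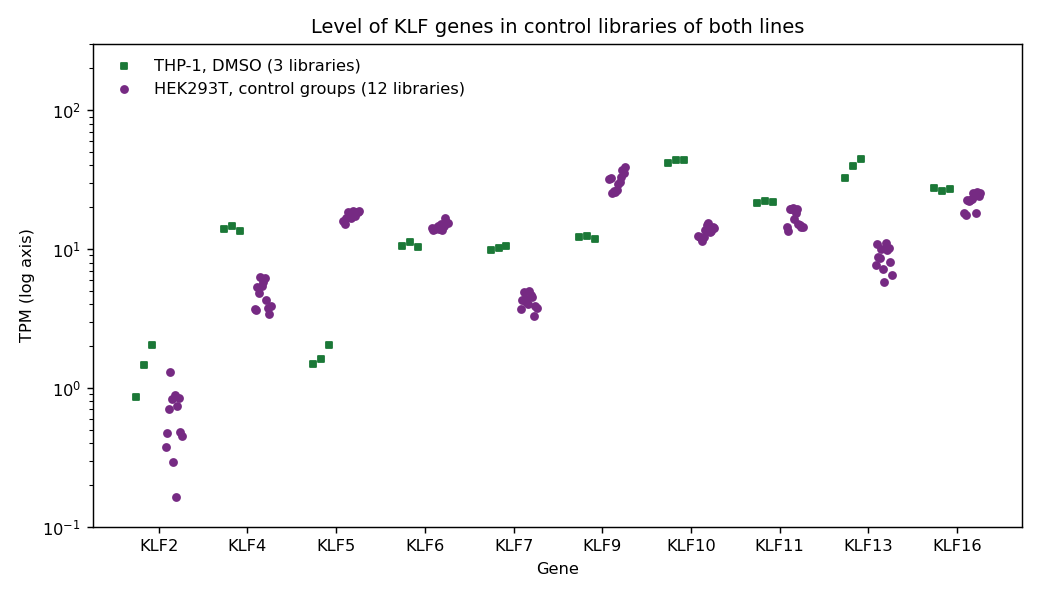
Level of each KLF gene in TPM (log axis) in the control libraries of THP-1 (DMSO, 3 libraries) and HEK293T (4 control groups, 12 libraries), 1 point per library. KLF5, KLF6 and KLF9 sit lower in THP-1 than in HEK293T, and KLF4, KLF7, KLF10 and KLF13 sit clearly higher.

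Over the 9 treatments with a control of their own, KLF6 passed the test higher in 6 and lower in 1, and KLF2, KLF9 and KLF11 passed it higher in 5 each. KLF9 and KLF11 were lower in 1 and 2 of the others, while KLF2 was lower in 0. The KLF2 calls with the POLR3G siRNA, siE4, siE6 and siE8 rest on few reads and were lost with an offset for transcript length. Shares of all genes called are given with each treatment below. KLF13 was higher in 1 and lower in 3, and KLF4 was higher in 0 and lower in 2. Calls were made at an adjusted p under 0.05 (edgeR, Benjamini-Hochberg over all genes tested). Statements below that groups did not overlap only describe their libraries, since the share of all genes without overlap was not counted. These counts are not of independent comparisons, since siE4, siE6 and siE8 share their control libraries and so do ML-60218 and CHX. The members were also chosen with earlier results of these data known, so counts and medians of members do not test a shift of the family.

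**Figure D2:**
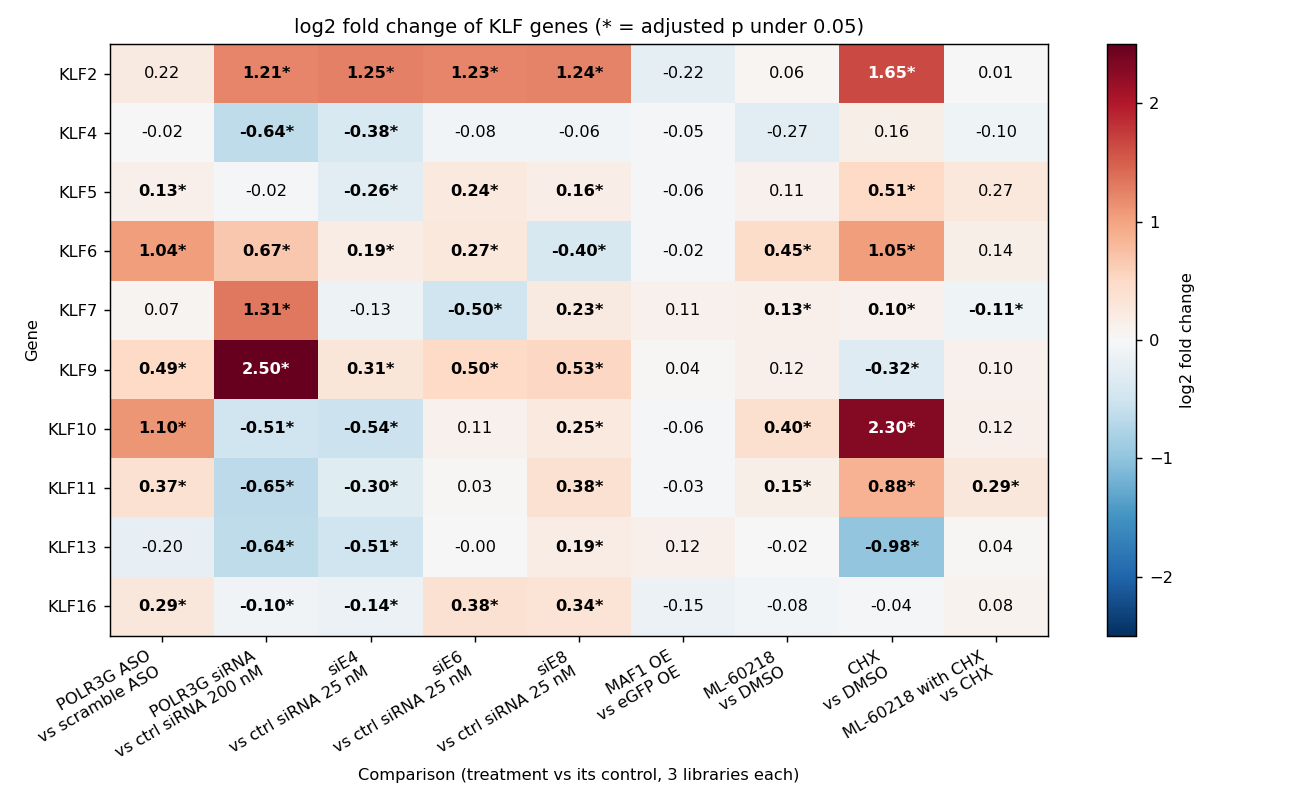
log2 fold change of each KLF gene (rows) in each treatment against its control (columns, 3 libraries a group), with colour and number giving the value and * marking an adjusted p under 0.05. The largest values are 2.50 for KLF9 with the POLR3G siRNA and 2.30 for KLF10 with CHX, and MAF1 OE has no marked gene.

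The POLR3G ASO raised 6 of the 10 KLF genes and lowered 0. Most raised were KLF10, a TGF-beta-inducible repressor, and KLF6, an injury-responsive activator, each about doubled in level, followed by KLF9, KLF11 and KLF16 with smaller rises. KLF10 had 61.0, 57.3 and 64.7 CPM in POLR3G ASO libraries, against 28.0, 28.0 and 29.3 CPM in scramble ASO libraries. Every ASO library lay far above every scramble library, a 2.15-fold rise (log2 1.10 ± 0.048 SE, n = 3 each, edgeR adjusted p = 2.1e-07). For KLF6 the values were 93.8, 96.3 and 95.6 CPM in POLR3G ASO libraries, against 45.2, 47.6 and 46.6 CPM in scramble ASO libraries. Again the groups stood apart with little spread within either, at 2.05-fold (log2 1.04 ± 0.029, adjusted p = 3.3e-08). In these poly(A) libraries of whole cultures, fewer cells of a type and less RNA per cell cannot be told apart.

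KLF9, a repressor induced by glucocorticoid and thyroid hormone, was at 177, 183 and 179 CPM with the ASO, against 127, 129 and 128 CPM with the scramble ASO. All 3 ASO libraries were above all 3 controls, 1.41-fold (log2 0.49 ± 0.023). KLF11, the closest relative of KLF10, rose 1.29-fold (log2 0.37 ± 0.043), from groups that did not overlap, and KLF16 rose 1.22-fold (log2 0.29 ± 0.042). KLF5 passed narrowly (log2 0.13 ± 0.051, adjusted p = 0.0451), and 8 of 12 alternatives ended that call, with adjusted p between 0.0227 and 0.172. KLF2, KLF4, KLF7 and KLF13 were at log2 0.22, -0.02, 0.07 and -0.20 and did not pass. Of all 17098 genes tested, 34.4% were called higher and 34.1% lower, beside 6 members higher and 0 lower. The members' median log2 change was 0.256 against -0.00333 over all genes. As the members were chosen with earlier results of these data known, this does not test a shift of the family. The other KLF and SP genes gave 1 higher and 5 lower of 14 tested, with a median of -0.0803. The monocytic markers were higher in these ASO libraries (6 of 6 tested), with 5 of 8 at 1 TPM or more against 2 of 8 in the scramble ASO libraries. Markers of other cell types gave 2 higher and 1 lower of 4 tested, so rises were not limited to monocytic genes. The HEK293T markers gave 1 higher and 3 lower of 4. The part of all these markers in the KLF changes was not tested.

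The POLR3G siRNA changed 9 of the 10 genes, 4 upward and 5 downward. KLF9 showed the largest change of any member in the HEK293T experiments, and KLF7, a factor of neuronal and adipose development, KLF2 (from few reads) and KLF6 rose as well. KLF10, KLF11 and KLF13 fell, as did KLF4, a factor of pluripotency and of monocyte differentiation. The genes with the SIN3A-recruiting domain did not move as a class, since KLF9 rose, KLF10, KLF11 and KLF13 fell and KLF16 passed only narrowly. KLF9 had 486, 475 and 502 CPM in POLR3G siRNA libraries, against 86.0, 85.8 and 86.1 CPM in control siRNA libraries. No library of either group came near the other, a 5.67-fold rise (log2 2.50 ± 0.024, adjusted p = 3.6e-11). A single transcript of KLF9 was matched to the annotation, so the reads counted are those of that transcript. Deposited transcripts without a match were left out.

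KLF7 had 42.3, 40.7 and 44.0 CPM in POLR3G siRNA libraries, against 17.8, 16.0 and 17.2 CPM in control siRNA libraries. The groups were well apart, 2.49-fold (log2 1.31 ± 0.048, adjusted p = 2.0e-08), and on the scale per length the rise was smaller, with 8.24, 7.52 and 9.28 TPM against 4.93, 4.39 and 4.15 TPM (log2 1.00 in a fit with an offset for transcript length). KLF6 rose 1.59-fold (log2 0.67 ± 0.026), with 63.1, 64.3 and 63.6 CPM in siRNA libraries, against 40.1, 39.2 and 40.6 CPM in controls. KLF2 was counted with only 44, 42 and 47 reads in POLR3G siRNA libraries, against 15, 27 and 16 reads in controls. The groups did not overlap in reads (log2 1.21 ± 0.25, adjusted p = 0.00216), but with the length offset the change was log2 0.20 (adjusted p = 0.655).

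Of the genes that fell, KLF11 had 30.5, 29.2 and 29.5 CPM with the POLR3G siRNA, against 47.4, 45.5 and 47.5 CPM in controls. This was 1.57-fold lower without overlap (log2 -0.65 ± 0.033, adjusted p = 1.5e-07). KLF13, a regulator of chemokine expression in T cells, had 14.7, 15.1 and 13.8 CPM with the siRNA, against 21.9, 23.4 and 22.5 CPM in controls, also without overlap (log2 -0.64 ± 0.049). KLF10 had 16.6, 15.2 and 15.7 CPM with the siRNA, against 23.2, 21.4 and 23.0 CPM in controls (log2 -0.51 ± 0.05). All 3 siRNA libraries of KLF10 were below all 3 controls. KLF4 had 5.33, 4.68 and 4.98 CPM with the siRNA, against 7.54, 7.38 and 8.39 CPM in controls, again separate groups (log2 -0.64 ± 0.089). KLF16 passed narrowly at log2 -0.10 (adjusted p = 0.0359), and 10 of 12 alternatives ended that call, over adjusted p of 0.0378 to 0.342. KLF5 was at log2 -0.02 and did not pass. Among the 15423 genes tested, 36.8% were called higher and 38.1% lower, close to the members' 4 and 5 of 10, and the median was -0.0576 for members against -0.0204 for all genes.

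Reagents against the same target gave different KLF changes, and the difference of the changes was tested over the 12 libraries of both experiments. It passed for 9 of 10 genes, where 66.8% of all 17489 genes tested passed. KLF10 was 2.99-fold higher in the ASO change than in the siRNA change (log2 1.58 ± 0.072, adjusted p = 5.2e-10), with opposite directions in the 2 experiments. KLF11 also moved in opposite directions, and its difference was log2 1.00 ± 0.055. KLF9 rose with both reagents, but the ASO change was 4.12-fold smaller than the siRNA change (log2 -2.04 ± 0.031, adjusted p = 6.9e-14). For KLF7 the difference was log2 -1.28 ± 0.097, or -0.66 with the length offset. KLF6, which also rose with both, differed by log2 0.33 ± 0.036. The other differences that passed were 0.59 for KLF4, 0.41 for KLF13, 0.36 for KLF16 and -1.02 for KLF2. The KLF2 difference had an adjusted p of 0.0259 and was lost in 7 of 18 alternatives (0.00465 to 0.597), and the KLF13 difference was lost with the length offset (adjusted p = 0.186). KLF5 did not pass (log2 0.12, adjusted p = 0.141).

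**Figure D3:**
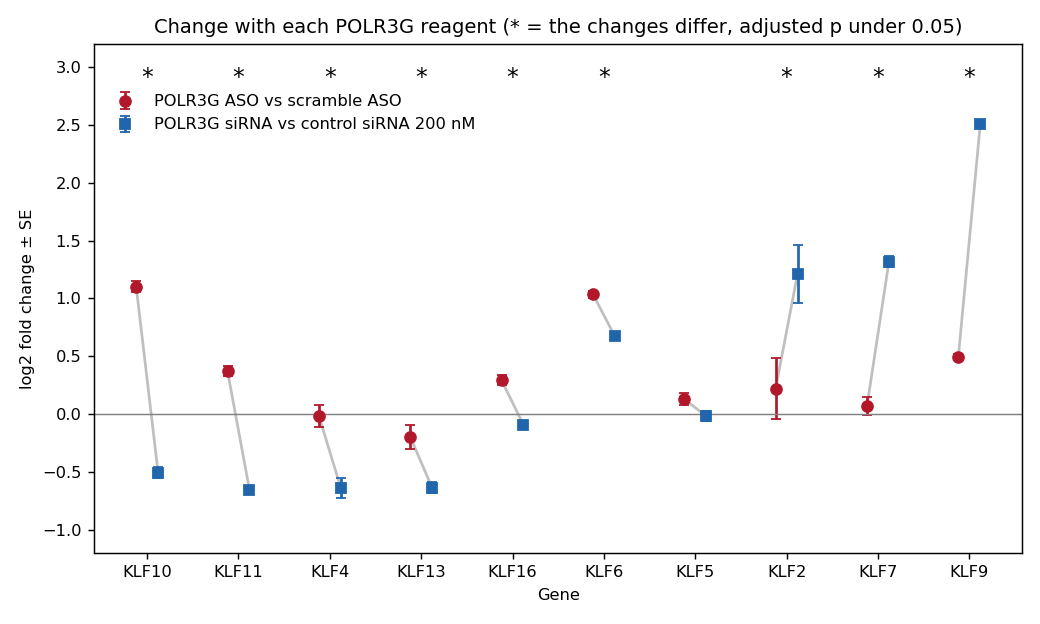
log2 fold change ± SE of each KLF gene with the POLR3G ASO (circles, against scramble ASO) and the POLR3G siRNA (squares, against control siRNA at 200 nM), 3 libraries a group, with * where the 2 changes differ at an adjusted p under 0.05. KLF10 and KLF11 lie above 0 with the ASO and below 0 with the siRNA, and KLF9 and KLF7 lie higher with the siRNA.

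With the POLR3GL siRNAs, KLF9 and KLF2 were higher with all 3 sequences, whereas KLF6, KLF7, KLF10 and KLF11 depended on which siRNA was used. The 3 share the control siRNA libraries at 25 nM, so agreement between them against that control is not independent evidence. KLF9 had 118, 121 and 119 CPM with siE4, 141, 136 and 133 CPM with siE6 and 140, 139 and 137 CPM with siE8, against 89.4, 96.9 and 103 CPM in the control. Every siRNA library was above every control library. The rises were 1.24-fold with siE4 (log2 0.31 ± 0.045), 1.42-fold with siE6 (log2 0.50 ± 0.045) and 1.44-fold with siE8 (log2 0.53 ± 0.045), with adjusted p of at most 6.6e-05. KLF2 had 31, 32 and 29 reads with siE4, 23, 39 and 38 reads with siE6 and 37, 32 and 19 reads with siE8, against 16, 15 and 9 reads in the control. No library of the 3 siRNAs fell to a control level, and the changes were log2 1.25, 1.23 and 1.24, but none passed with the length offset (adjusted p = 0.181 for siE4, 0.244 for siE6 and 0.0971 for siE8).

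KLF6 had 46.9, 49.9 and 49.1 CPM with siE4, 50.6, 52.3 and 51.4 CPM with siE6 and 33.8, 31.2 and 31.8 CPM with siE8, against 40.8, 44.8 and 42.2 CPM in the control. It was above the control with siE4 and siE6 and below it with siE8, with no overlap in any case (log2 0.19, 0.27 and -0.40). KLF10 had 19.1, 18.6 and 19.6 CPM with siE4, 30.7, 29.7 and 29.5 CPM with siE6 and 32.9, 34.3 and 31.7 CPM with siE8, against 26.1, 27.5 and 29.5 CPM in the control. It was lower with siE4 (log2 -0.54 ± 0.053) and higher with siE8 (log2 0.25 ± 0.052), both without overlap, and at log2 0.11 with siE6, which did not pass. KLF11 went the same ways, with 37.7, 35.7 and 33.9 CPM with siE4 and 56.2, 58.1 and 57.4 CPM with siE8, against 41.2, 44.5 and 46.3 CPM in the control (log2 -0.30 and 0.38).

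KLF7 had 11.3, 11.4 and 11.7 CPM with siE6, below all of the control at 15.2, 16.8 and 16.6 CPM (log2 -0.50 ± 0.074, adjusted p = 6.0e-05). With siE8 it was at log2 0.23 (adjusted p = 0.0158), a call that turned to -0.065 with the length offset (adjusted p = 0.751) and was lost without siE8 replicate 1 or control replicate 1. KLF13 was lower with siE4, at 17.9, 17.8 and 17.03 CPM against 21.7, 25.1 and 28.0 CPM in the control (log2 -0.51 ± 0.078), though not with the length offset (adjusted p = 0.731), and its rise with siE8 (log2 0.19, adjusted p = 0.0448) was lost in 13 of 19 alternatives (0.0039 to 0.316). KLF16, linked to dopamine receptor expression, rose with siE6 (log2 0.38 ± 0.052) and siE8 (log2 0.34 ± 0.052), and with siE4 it was at log2 -0.14 with an adjusted p of 0.037 that 11 of 19 alternatives ended (0.00827 to 0.164). KLF5 was lower with siE4 (log2 -0.26) and higher with siE6 (log2 0.24) and siE8 (log2 0.16, lost without control replicate 1 at adjusted p = 0.0685). KLF4 was lower with siE4 (log2 -0.38 ± 0.077) and at -0.08 with siE6 and -0.06 with siE8, neither of which passed.

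Counted by siRNA, siE4 had 3 members higher and 6 lower, beside 26.2% and 28.7% of all 15573 genes tested. With siE6 the members were 5 higher and 1 lower, beside 31.2% and 31.8%. Under siE8 they were 8 higher and 1 lower, beside 29.1% and 28.6%. The members' median log2 change was -0.203 with siE4, 0.176 with siE6 and 0.24 with siE8, against -0.0207, -0.00182 and -0.00897 over all genes. The HEK293T markers summed to 66.8 to 69.4 TPM with siE4, 40.7 to 48.7 TPM with siE6 and 94.0 to 103 TPM with siE8, against 139 to 165 TPM in the control. Of these 4 markers 0 were called higher and 2 lower with siE4, 1 and 3 with siE6 and 1 and 2 with siE8, and their part in these changes was not tested.

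The siRNAs were also set directly against each other, without the shared control. siE4 differed from siE8 in 9 of 10 genes, beside 63.0% of all genes, with KLF6 higher (log2 0.59 ± 0.046) and 8 genes lower, led by KLF10 (log2 -0.79 ± 0.053), KLF13 (-0.70) and KLF11 (-0.68). The KLF7 and KLF13 calls of this pair were lost with the length offset (adjusted p = 0.0902 and 0.161). Between siE6 and siE8 the difference passed for 5 genes, beside 64.2%: KLF6 was 1.59-fold higher with siE6 (log2 0.67 ± 0.046), KLF7 1.66-fold lower (log2 -0.73 ± 0.074) and KLF11 1.28-fold lower (log2 -0.35 ± 0.05). KLF13 (log2 -0.20) and KLF10 (log2 -0.14) passed narrowly, and DESeq2 called neither. siE4 differed from siE6 in 8 genes, beside 64.8%, with KLF7 higher (log2 0.36) and 7 lower, among them KLF10 (log2 -0.65 ± 0.053), KLF16 (-0.52) and KLF5 (-0.51). Here too the KLF7 and KLF13 calls were lost with the length offset (adjusted p = 0.0524 and 0.302). KLF2 passed in none of these direct tests (log2 0.01 for siE4 against siE8, -0.01 for siE6 against siE8 and 0.03 for siE4 against siE6), where its SE was 0.29.

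**Figure D4:**
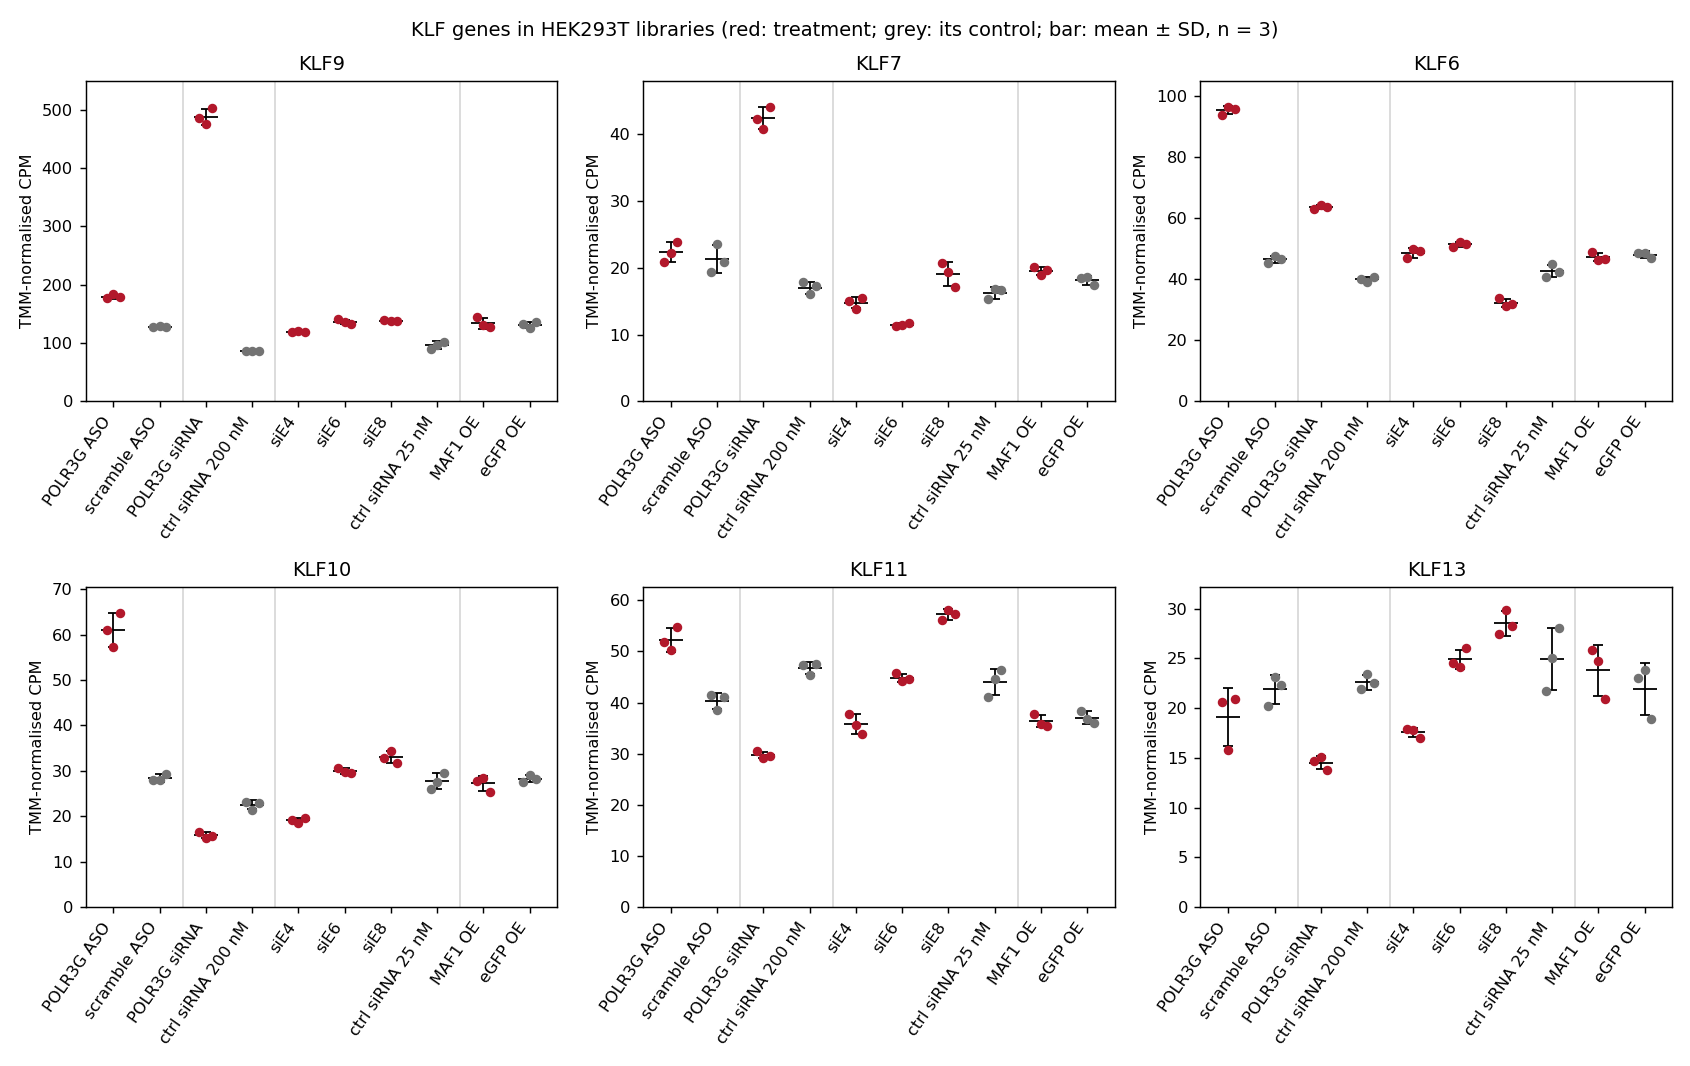
CPM of 6 KLF genes in each HEK293T library (points), with the mean and SD of the 3 libraries of a group, treatments in red and their controls in grey, experiments divided by vertical lines. KLF9 with the POLR3G siRNA (475 to 502 CPM) stands above all other groups, KLF10 is highest with the POLR3G ASO (57.3 to 64.7 CPM), and MAF1 OE and eGFP OE libraries lie together.

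Overexpression of MAF1 left 0 of 10 KLF genes past the test in edgeR and 0 in DESeq2, where 6 of 15543 genes (0.0386%) passed in edgeR. The smallest p was that of KLF16, with 29.5, 30.4 and 29.7 CPM in MAF1 OE libraries, against 34.5, 32.1 and 32.5 CPM in eGFP OE libraries. These values did not overlap (log2 -0.15 ± 0.041, adjusted p = 0.409). Nor did the groups overlap for KLF5, which was lower, or for KLF7, which was higher. KLF16 was the 1 member with an unadjusted p under 0.05. The other 9 lay between log2 -0.22 for KLF2 and 0.12 for KLF13, and KLF9, KLF6 and KLF10 were at 0.04, -0.02 and -0.06.

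In THP-1, CHX gave the largest changes: KLF10, KLF2, KLF6, KLF11 and KLF5 rose, KLF13 fell 1.98-fold, and KLF9 fell slightly. KLF10 had 472, 476 and 495 CPM in CHX libraries, against 94.3, 99.9 and 97.8 CPM in DMSO libraries. The groups were far apart, 4.94-fold (log2 2.30 ± 0.047, adjusted p = 1.0e-12). KLF2, which restrains inflammatory activation of monocytes, had 4.44, 4.46 and 4.39 CPM with CHX, against 1.35, 1.29 and 1.60 CPM in DMSO. All CHX libraries were above all DMSO libraries, 3.13-fold (log2 1.65 ± 0.13). KLF6 had 82.2, 70.2 and 79.2 CPM with CHX, against 37.8, 38.7 and 35.0 CPM in DMSO, 2.08-fold higher without overlap (log2 1.05 ± 0.065).

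KLF11 had 105, 110 and 111 CPM with CHX, against 59.4, 58.8 and 59.0 CPM in DMSO. This was a 1.84-fold rise with tight groups (log2 0.88 ± 0.028, adjusted p = 3.6e-11). KLF13 had 49.7, 49.5 and 51.9 CPM with CHX, against 102, 101 and 95.2 CPM in DMSO, the larger of the 2 falls (log2 -0.98 ± 0.054). KLF9 was 1.25-fold lower, with 38.1, 36.1 and 41.0 CPM against 48.7, 49.0 and 45.8 CPM in DMSO (log2 -0.32 ± 0.051). KLF5 rose 1.42-fold from a low level (log2 0.51 ± 0.12), and KLF7 passed at log2 0.10, a call lost without DMSO replicate 2 (adjusted p = 0.0685). KLF4 (log2 0.16) and KLF16 (log2 -0.04) did not pass. The 6 members higher and 2 lower stand beside 33.5% and 32.5% of all 15327 genes tested, with a median of 0.331 for members against -0.00561 for all genes. The monocytic markers summed to 4356 to 4721 TPM with CHX, against 5741 to 6295 TPM in DMSO, with 4 of the 8 called higher and 4 lower, and their part was not tested.

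ML-60218 alone raised 4 KLF genes and lowered 0, by less than 1.5-fold in each case. KLF6 had 48.0, 55.5 and 49.4 CPM in ML-60218 libraries, against 37.8, 38.7 and 35.0 CPM in DMSO libraries. All 3 treated libraries were above all 3 controls, 1.37-fold (log2 0.45 ± 0.066, adjusted p = 0.000604). KLF10 had 128, 138 and 121 CPM with ML-60218, against 94.3, 99.9 and 97.8 CPM in DMSO, 1.32-fold higher without overlap (log2 0.40 ± 0.047). KLF11 was at 66.3, 65.2 and 64.4 CPM with ML-60218, against 59.4, 58.8 and 59.0 CPM in DMSO (log2 0.15 ± 0.029), which did not pass with the length offset (adjusted p = 0.0948). KLF7 passed at log2 0.13 (adjusted p = 0.0219), a call that 4 of 18 alternatives ended (0.0186 to 0.0844). KLF4 had 20.4, 18.4 and 21.2 CPM with ML-60218, against 24.2, 24.6 and 23.5 CPM in DMSO, groups that did not overlap but did not pass (log2 -0.27 ± 0.087, adjusted p = 0.0534). Here 8.48% of all genes were called higher and 7.05% lower, and the median was 0.116 for members against -0.00862 for all genes.

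Added to CHX, ML-60218 raised KLF11 and lowered KLF7 (1 higher and 1 lower of 10, beside 8.75% and 7.75% of all genes). KLF11 had 130, 136 and 133 CPM with both agents, against 105, 110 and 111 CPM with CHX alone. The groups did not overlap, 1.22-fold (log2 0.29 ± 0.027, adjusted p = 3.0e-05). KLF7 was at 63.1, 60.3 and 61.1 CPM with both agents, against 67.4, 65.1 and 67.2 CPM with CHX alone (log2 -0.11, adjusted p = 0.0393), and 10 of 18 alternatives ended this call (0.0285 to 0.173). KLF10 had 537, 502 and 534 CPM with both agents, against 472, 476 and 495 CPM with CHX alone (log2 0.12 ± 0.044, adjusted p = 0.0714), and KLF6 was at log2 0.14 (adjusted p = 0.156). The members' median was 0.0893 against -0.00477 over all genes.

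Whether the effect of ML-60218 depended on CHX was tested as an interaction, which passed for 3 members, beside 6.56% of all genes. On the log scale KLF10 responded less to ML-60218 in the presence of CHX (log2 -0.28 ± 0.064, adjusted p = 0.0237). That call was lost without CHX replicate 3, without replicate 2 of both agents or without DMSO replicate 1 (0.00142 to 0.0664). In CPM the rise of KLF10 was not smaller under CHX. Its mean went from 97.35 to 128.8 CPM without CHX and from 480.9 to 524.3 CPM with it. KLF7 was higher with ML-60218 alone and lower under CHX (log2 -0.24 ± 0.048, adjusted p = 0.0122). KLF11 responded slightly more under CHX (log2 0.15 ± 0.04, adjusted p = 0.0487), and 14 of 17 alternatives ended its call (0.0415 to 0.12). For KLF6 the interaction was log2 -0.32 ± 0.09 and did not pass (adjusted p = 0.0568).

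**Figure D5:**
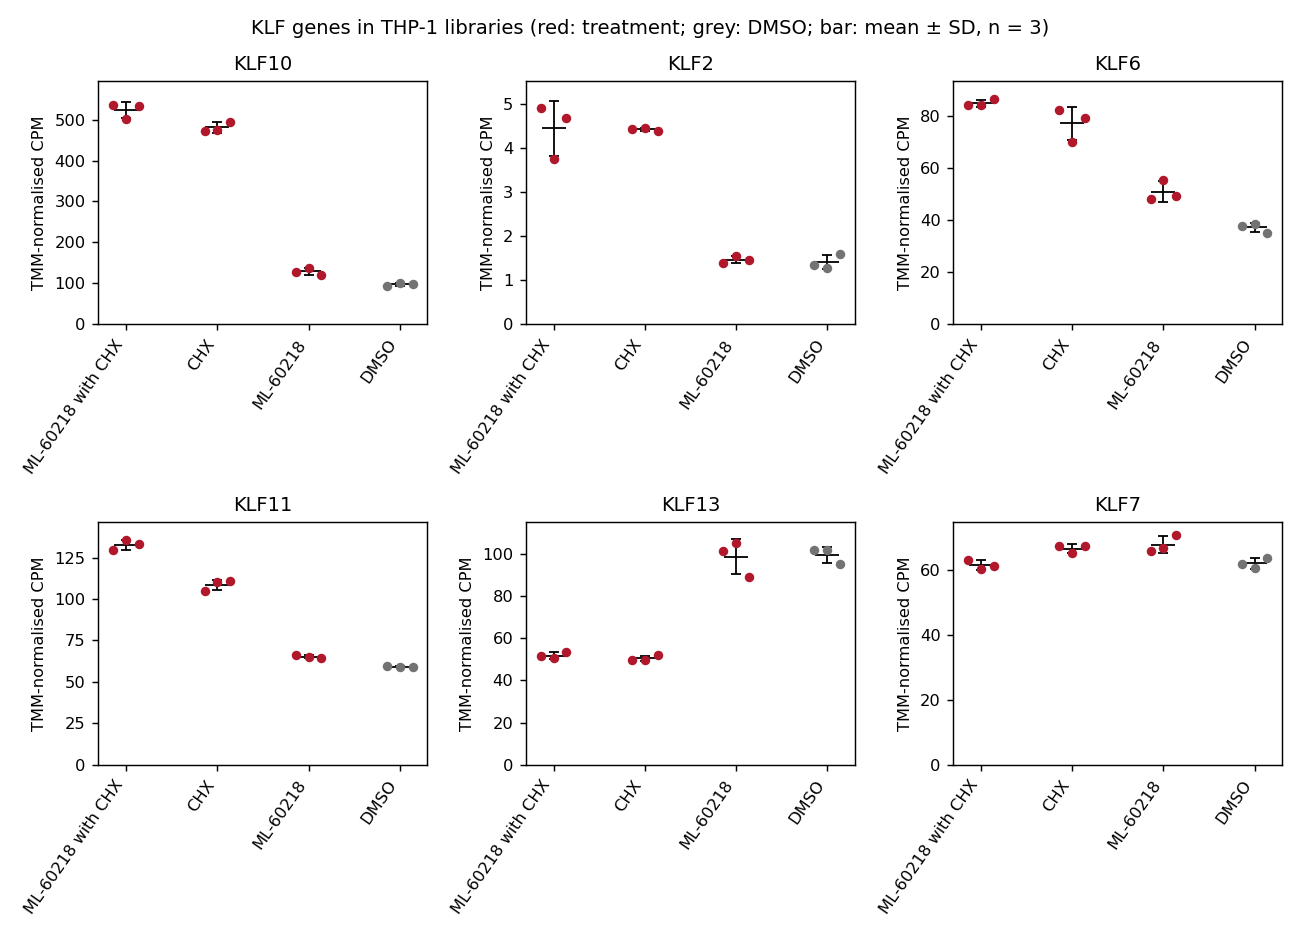
CPM of 6 KLF genes in each THP-1 library (points) with the mean and SD of the 3 libraries of a group, treatments in red and DMSO in grey. KLF10, KLF2, KLF6 and KLF11 are higher and KLF13 is lower in both groups with CHX, and KLF11 is highest with both agents (130 to 136 CPM).

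Estimates are given for a single transcript each of KLF10, KLF6 and KLF7, picked by hand from the 2, 7 and 9 matched to the annotation. They do not describe all reads of these genes. KLF10 transcript ENST00000395884.3 held 220, 328 and 248 reads (11.0, 17.6 and 12.5% of the gene) in POLR3G ASO libraries, against 46.9, 43.4 and 34.8 reads (5.03, 4.63 and 3.53%) in scramble ASO libraries. Both its reads and its share of the gene were higher in every ASO library than in any scramble ASO library. The share of this KLF10 transcript also varied within other groups, at 7.245, 0.7075 and 3.275% in siE6 libraries. With the POLR3G siRNA it was 10.29, 9.338 and 5.631%. KLF6 transcript ENST00000542957.1 made up 14.1, 12.9 and 8.43% of the gene in POLR3G ASO libraries, against 20.5, 17.2 and 17.3% in scramble ASO libraries, a lower share in each. Its share also varied widely within a group, at 14.71, 28.66 and 13.65% in siE8 libraries. KLF7 transcript ENST00000435602.2 held 0.974, 0.916 and 0% of the gene's reads with the POLR3G siRNA, against 15.1, 15.3 and 14.4% in its control. The share of this KLF7 transcript was unstable between HEK293T controls, at 0, 2.60 and 2.17% in eGFP OE libraries, so low shares also occurred without the siRNA. That transcript was at 0 reads in all THP-1 libraries. No test was run on shares, which Salmon estimates from reads that several transcripts can share.

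The related genes were counted from lists of 17 other KLF and SP genes, 12 cofactors of KLFs, 14 inducers of KLF genes, 15 genes of KLF mRNA and protein turnover, and 20 reported KLF targets, and each count is given out of the genes that entered the test. With the POLR3G siRNA, where 36.8% of all genes rose and 38.1% fell, 10 of 15 turnover genes rose and 3 fell, among them CNOT7, a deadenylase subunit that shortens mRNA tails (220 ± 4.31 CPM with the siRNA and 71.5 ± 1.10 CPM in control, log2 1.62). Of 18 reported targets, 10 rose and 6 fell there, including CDKN1B, a cell cycle inhibitor (log2 1.16), and S1PR1, a lymphocyte migration receptor and target of KLF2 (log2 -1.18). Among 14 other KLF and SP genes 6 rose and 5 fell, such as SP9 (log2 1.27) and KLF15 (log2 -1.17), as did 5 and 5 of 12 cofactors, among them SAP30 of the SIN3 complex (log2 1.03). Of 14 inducers 6 rose and 6 fell, among them NR3C1, the glucocorticoid receptor that is known to induce KLF9 (148 ± 1.501 CPM with the siRNA and 86.1 ± 1.22 CPM in control, log2 0.78).

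With the POLR3G ASO, where 34.4% of all genes rose and 34.1% fell, the lists gave 1 higher and 5 lower of 14 other KLF and SP genes, led by KLF12 (log2 -0.89), 2 and 6 of 12 cofactors, 5 and 8 of 14 inducers, 7 and 5 of 15 turnover genes and 6 and 7 of 18 targets. Among the targets, TXNIP, CDKN1B and SMAD7, an inhibitor of TGF-beta signalling, rose (log2 0.91, 0.80 and 0.75), and among the inducers MAP2K5, a kinase upstream of MEF2 and KLF2, fell (log2 -0.55). With siE4 (26.2% of all genes higher and 28.7% lower), 9 of 15 turnover genes rose and 1 fell, and 4 of 18 targets rose and 10 fell, with TXNIP lowest (log2 -1.94), while other KLF and SP genes gave 6 and 2 of 13, cofactors 6 and 4 of 12 and inducers 7 and 1 of 14. siE6 (31.2% and 31.8%) gave 9 and 4 of 15 turnover genes and 5 and 9 of 18 targets, with CDKN1A, the cell cycle inhibitor, at log2 1.37, and 3 and 6 of 13 other KLF and SP genes, 7 and 4 of 12 cofactors and 2 and 7 of 14 inducers, with SRF at log2 1.04. siE8 (29.1% and 28.6%) gave 6 and 7 of 15 turnover genes and 4 and 8 of 18 targets, with TGFBR3 at log2 -1.73, and 4 and 2 of 13 other KLF and SP genes, 4 and 4 of 12 cofactors and 6 and 5 of 14 inducers, with MEF2C at log2 -1.55. For MAF1 OE, 0 of 71 tested genes of these lists passed in edgeR, and 4 had an unadjusted p under 0.05.

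In THP-1, CHX, with 33.5% of all genes higher and 32.5% lower, raised 7 and lowered 1 of 9 other KLF and SP genes tested, led by SP4 (log2 1.04), and raised 3 and lowered 9 of 15 turnover genes, with ZFP36L2, which destabilises AU-rich mRNAs, at log2 -1.57. Of 17 targets, 7 rose and 6 fell with CHX, among them TSC22D3 (log2 2.08), PER1 (log2 1.90) and MYC (log2 -1.98). Cofactors gave 5 higher and 4 lower of 12, among them EP300 (log2 1.35), and inducers 6 and 6 of 14, among them SRF (log2 -1.35). ML-60218 alone, with 8.48% of all genes higher and 7.05% lower, raised 5 and lowered 2 of 17 targets, with THBD, the endothelial anticoagulant and KLF2 target, at log2 0.85, and 1 and 1 of 9 other KLF and SP genes, 1 and 0 of 12 cofactors, 1 and 0 of 14 inducers and 2 and 0 of 15 turnover genes. Added to CHX, with 8.75% and 7.75% of all genes, it raised 8 and lowered 3, with PER1, a circadian gene, at log2 0.64, and 2 and 1 of 9 other KLF and SP genes, 0 and 1 of 12 cofactors, 3 and 0 of 14 inducers and 2 and 1 of 15 turnover genes.

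Over the 42 libraries, with each experiment's mean removed from log2 CPM, the patterns of the members were compared with those of 11723 genes as a description (Pearson r, libraries of a group not independent). KLF6 was most like JUN (r = 0.937) and SERTAD1 (r = 0.931), and KLF10 was most like TIPARP (r = 0.960) and RNF19B (r = 0.958). KLF11 was most like RAB21 (r = 0.943) and then KLF10 itself (r = 0.927), the highest value between members. KLF9 had DBF4 (r = 0.961) and DR1 (r = 0.960) as nearest genes, KLF7 had PSMC1 (r = 0.924) and TMEM100 (r = 0.922), and KLF13 had UCK2 (r = 0.939) and USP22 (r = 0.935). KLF5 was nearest TATDN3 (r = 0.902) and ARIH1 (r = 0.892), KLF16 CHMP4C (r = 0.849) and CSTF2T (r = 0.846), and KLF4 DUS2 and LRRFIP1 (r = 0.831 each). KLF2, at a mean of 1.32 CPM, was below the minimum of 5 CPM and was not compared with other genes. Between members the lowest values were those of KLF13 with KLF2 (r = -0.805, from few KLF2 reads) and KLF6 (r = -0.763). KLF7 and KLF9 had r = 0.79. Both rose most with the POLR3G siRNA (log2 1.31 and 2.50) and were higher with siE8. They were called in opposite directions with siE6 (log2 -0.50 and 0.50) and CHX (log2 0.10 and -0.32). How far single groups set these values was not tested.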

How the data were processed

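Per the labels' protocols, poly(A)-selected stranded libraries were read in pairs of 151 cycles on a NovaSeq X Plus instrument. The tools were bcl2fastq 2.20, Trim Galore, Salmon and DESeq2 with hg38, per the submitters' processing notes, with other versions not given in the sources used here. The authors deposited an estimated count and a TPM value for each of 194142 transcripts in each library. Identifiers were matched to GENCODE 29 (GRCh38), which named 158359 of them (81.6%) with 91.1% of the reads, and unmatched transcripts (8.06% to 9.54% of a library) were left out. Counts were summed per gene and rounded, TPM was summed as deposited. Each experiment was fitted alone by edgeR 4.0.16 (R 4.3.3, quasi-likelihood F-test, TMM scaling, low counts removed by filterByExpr, Benjamini-Hochberg over all genes tested, calls at an adjusted p under 0.05), and the ASO and siRNA changes were compared over 12 libraries. The fits were also run on simulated counts in which few genes were changed. Most comparisons here called far larger shares, so that run does not measure their error rates. Alternatives were DESeq2 1.42.0, its size factors, no filter, an adjusted p under 0.01, an offset for effective length, a block for the replicate number, fits on fewer or more groups, and each library left out. The members and lists were chosen with earlier results of these data known. All members may be named. Of each other list, up to 3 called genes per comparison were eligible, those with the largest change at a mean of at least 5 CPM. SMURF1, eligible by that rule, is not named because its replicates disagree. Python 3.11.15, pandas 2.3.3, numpy 2.4.6 and matplotlib 3.10.9 made tables and figures. Differential transcript usage was not tested.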

Additional observations from a re-analysis of the deposited data

Results flagged for a closer look

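The changes with the POLR3G ASO and the POLR3G siRNA, each against its own control, differed past the test for 9 members, where 66.8% of all genes passed. The ASO change minus the siRNA change was log2 1.58 for KLF10, 1.00 for KLF11, 0.59 for KLF4, 0.41 for KLF13, 0.36 for KLF16 and 0.33 for KLF6. It was log2 -2.04 for KLF9, -1.28 for KLF7 and -1.02 for KLF2. The KLF2 call was lost in 7 of 18 alternatives and the KLF13 call with the length offset. The effect of ML-60218 with CHX minus that without passed the test for 3 members, where 6.56% of all genes passed, at log2 -0.28 for KLF10, -0.24 for KLF7 and 0.15 for KLF11. Alternatives ended the KLF11 call in 14 of 17 cases and the KLF10 call in 3 of 17, and 0 members passed at an adjusted p under 0.01.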

How the results depend on the processing

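Of 87 member changes that passed the test, 62 passed under every alternative that kept the threshold of 0.05. With ML-60218 and CHX against CHX, 2 members passed, against 1 with DESeq2 size factors, with no filter on low counts and at an adjusted p under 0.01, and 1 to 3 when a library was left out. For the interaction 3 passed, against 0 at an adjusted p under 0.01 and 1 to 3 with a library left out. For siE6 against siE8, 5 passed, against 3 with DESeq2 and at an adjusted p under 0.01, and 3 to 5 with a library left out. Libraries with the same replicate number had correlations of their deviations of -0.270 to 0.216. These were 0.066 to 0.08 in the overexpression experiment and -0.064 to 0.063 in the POLR3G siRNA experiment. Libraries with different numbers were not compared, so these values cannot show whether libraries pair by replicate number. With that number as a block, 5 passed with the POLR3G ASO (6 without), 8 with siE4 (9), 5 with ML-60218 (4) and 2 for the interaction (3), and the counts of the other comparisons were equal.

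Signs turned for changes that had not passed, and for 1 that had. With the length offset these were KLF7 with siE8 (-0.065, the 1 that had passed), KLF2 and KLF4 with the ASO (-0.10 and 0.020), KLF5 with the POLR3G siRNA (0.034), KLF13 with siE6 (0.25), KLF2 for siE4 against siE8 (-0.24), KLF13 with ML-60218 (0.17), KLF2 with ML-60218 added to CHX (-0.36) and KLF13 in the interaction (-0.0012). KLF13 with siE6 was 0.0068 with DESeq2, 0.0045 with its size factors, 0.0058 with no filter, 0.0010 with the block and 0.0027 with all HEK293T libraries, and KLF2 for siE6 against siE8 was 0.027 with the block. With a library left out, the ranges that crossed 0 were -0.00087 to 0.14 (KLF7) and -0.088 to 0.028 (KLF4) with the ASO, -0.048 to 0.022 (KLF5) with the POLR3G siRNA, and -0.092 to 0.092 (KLF13) and -0.020 to 0.066 (KLF11) with siE6. Between siRNAs they were -0.23 to 0.18 (KLF2, siE4 against siE8), -0.26 to 0.16 (KLF2) and -0.040 to 0.027 (KLF4) for siE6 against siE8, and -0.14 to 0.15 (KLF2, siE4 against siE6). They were -0.022 to 0.074 (KLF9) and -0.48 to 0.021 (KLF2) with MAF1 OE, -0.0063 to 0.15 (KLF2) and -0.064 to 0.052 (KLF13) with ML-60218, and -0.064 to 0.13 (KLF2) and -0.19 to 0.0067 (KLF4) with ML-60218 added to CHX. In the interaction they were -0.075 to 0.019 (KLF9), -0.15 to 0.060 (KLF2) and -0.014 to 0.10 (KLF13). The cause of these turns was not tested.

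Named genes of the other lists were run through the same alternatives, a choice made after seeing the data, and 89 of 1881 values no longer passed while 0 turned sign. Of the settings other than a library left out or a stricter threshold, none moved the median of all genes by more than 0.0437. Limits are the low reads of KLF2 in HEK293T (9 to 47 a library) and transcripts without a match.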
